A study of Mus with 8 samples.

Results

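The circadian clock of mouse skin was followed through 10 genes, Per1, Per2, Per3, Dbp, Tef, Nr1d1, Nr1d2, Arntl, Clock and Cry1. They were taken by symbol as core clock and clock output genes, and all 10 were found among the 14980 genes that carry 1 symbol in the authors' deposited tables. Those tables list probesets past a fold change in these same samples, so the set of named genes is not independent of the data. Where a gene had several probesets, the one brightest on average over the 8 arrays stands for it.

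Skin with its hair follicles came from male C57BL6 mice that arrived at 6 weeks of age, acclimatised for 7 days and were 7 weeks old when used. Their hair was trimmed and removed, and the skin was treated topically for 20 days with 1% minoxidil (a vasodilator used against hair loss, the positive control), 1% keratin, 1% microsphere keratin or MilliQ water (untreated below). Groups held 5 mice, and each group has 2 arrays, numbered 1 and 2. Whether a number stands for an animal, a pool of animals or a second hybridisation is not stated. Each p-value therefore measures the spread between arrays only, which may be technical, and having few arrays limits the precision. Arrays of the same number are set side by side below without being known pairs. The hour at which skin was collected is not given in the sources used here.

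The mammalian clock is a transcriptional loop. The proteins of Clock and Arntl (also called Bmal1) pair and switch on the Per and Cry genes, the nuclear receptor genes Nr1d1 and Nr1d2, and the output factors Dbp and Tef. PER and CRY proteins then repress that pair, the NR1D receptors (REV-ERBs) repress Arntl, and DBP and TEF drive further rhythmic genes. In skin the loop runs in epidermis, dermis and follicle, and clock gene levels are known to vary with the hour of the day and with the hair cycle.

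Minoxidil array 1 and, less so, untreated array 1 stood apart. Over all probesets, r between minoxidil array 1 and any of the other 7 was 0.390 to 0.475, and r among those 7 was 0.886 to 0.988. Minoxidil array 1 had a 3′ Gapdh control reading of 196 and untreated array 1 one of 298, against 630 to 1605 in the remaining 6 arrays. The median intensity of an array was 35.9 to 37.7. Differences that these arrays move are also given without them.

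Of the clock genes, 5 had probesets well above these medians, with a mean intensity over 50: Nr1d2, Tef, Dbp, Per1 and Per3. Their means lay between the 80.4th percentile (Per3) and the 96.7th percentile (Nr1d2) of all 45141 probesets. Per3, at a mean of 52.8, was just inside this split and Clock, at 44.7, just outside. The other 5 genes, Clock, Per2, Arntl, Cry1 and Nr1d1, had means of at most 44.7, close to the medians. Intensities of different probesets cannot be set against each other as amounts of RNA.

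**Figure D1:**
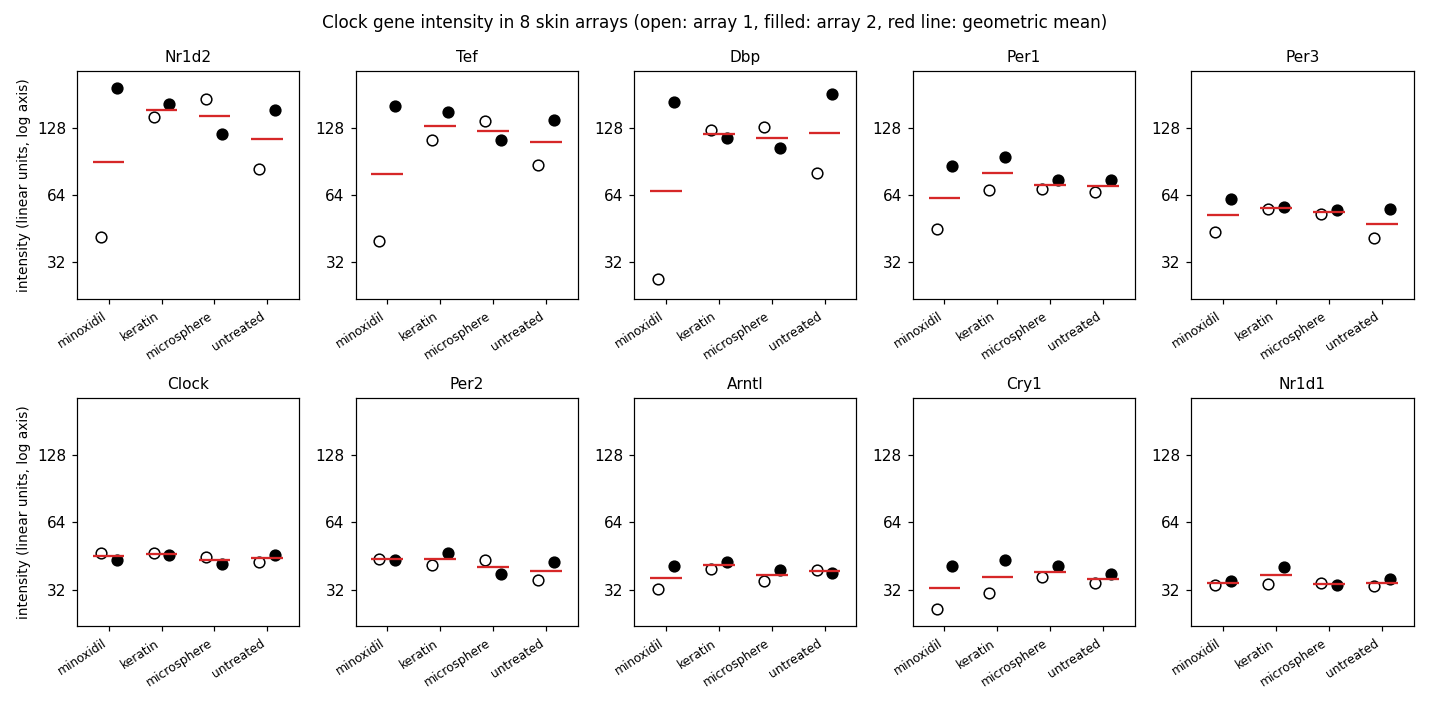
Intensity of the 10 clock genes in each array on a log axis, with array 1 as an open and array 2 as a filled point and the geometric mean as a red line. Minoxidil array 1 is lowest for Nr1d2, Tef, Dbp and Per1, and the lower row of 5 genes stays between 26.3 and 46.9 in all arrays.

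The activators were nearly flat over the arrays, on probesets close to the array medians of 35.9 to 37.7, where small changes could not be detected. Arntl (probeset 1425099_PM_a_at) read 32.2 and 40.8 in minoxidil arrays 1 and 2, 39.7 and 42.7 in keratin arrays, 35.0 and 39.4 in microsphere keratin arrays, and 39.2 and 38.2 in untreated arrays. Clock (1435775_PM_at) read 46.9 and 43.3 with minoxidil, 46.8 and 45.7 with keratin, 45.0 and 41.9 with microsphere keratin, and 42.5 and 45.8 in untreated skin. Both keratin arrays of Arntl lay above both untreated arrays, and for Clock each treatment overlapped the untreated arrays. A second Clock probeset (1418659_PM_at) ran from 34.9 in minoxidil array 1 to 47.0 in keratin array 1. On it both microsphere keratin arrays, at 41.6 and 37.8, lay below the untreated 43.5 and 43.1.

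The Per genes code for repressors of the loop. Per1 (1449851_PM_at), which glucocorticoids also induce, read 45.3 and 86.1 with minoxidil, 67.7 and 94.4 with keratin, 67.8 and 74.8 with microsphere keratin, and 66.2 and 75.0 in untreated skin. Keratin array 2 was highest, and the microsphere keratin arrays lay between the untreated ones. Per3 (1441445_PM_at) read 43.9 and 61.4 with minoxidil, 55.7 and 56.8 with keratin, 52.6 and 55.2 with microsphere keratin, and 41.1 and 55.3 in untreated skin. Both keratin arrays were above both untreated arrays, although keratin array 1 was only just above untreated array 2. On a nearly as bright Per3 probeset (1421087_PM_at) they overlapped, at 51.1 and 55.0 with keratin and 39.5 and 60.4 in untreated skin. On the dimmest Per3 probeset (1442243_PM_at) both keratin arrays, at 45.9 and 50.2, were above the untreated 41.7 and 44.2.

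Per2 (1457350_PM_at) was dim, at 44.1 and 43.7 with minoxidil, 41.4 and 46.6 with keratin, 43.5 and 37.6 with microsphere keratin, and 35.4 and 42.5 in untreated skin. Its other probeset had another order and was highest in minoxidil array 2, at 52.1. Cry1 (1433733_PM_a_at), the other repressor, read 26.3 and 40.7 with minoxidil, 31.1 and 43.2 with keratin, 36.4 and 40.8 with microsphere keratin, and 34.3 and 37.4 in untreated skin. In each of the 4 groups array 2 of Cry1 was above array 1.

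The nuclear receptor Nr1d2 and the output factors varied most between arrays. Nr1d2 (1416958_PM_at), a repressor of Arntl, read 41.6 and 193 with minoxidil, 143 and 164 with keratin, 172 and 120 with microsphere keratin, and 84.0 and 153 in untreated skin. Minoxidil array 2 was highest and, after minoxidil array 1, untreated array 1 was lowest, and the arrays of each treatment overlapped the untreated ones. Nr1d1 (1426464_PM_at), the other REV-ERB gene, read 33.7 and 34.9 with minoxidil, 33.9 and 40.5 with keratin, 34.5 and 33.6 with microsphere keratin, and 33.2 and 35.6 in untreated skin. Keratin array 2 was highest for Nr1d1. Nr1d1 lay below the 25th percentile of gene means and was not tested, which left 9 of the 10 clock genes in the fit.

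Tef (1424175_PM_at), a PAR bZIP factor that activates D-box genes, read 40.0 and 159 with minoxidil, 112 and 151 with keratin, 137 and 113 with microsphere keratin, and 87.5 and 139 in untreated skin. For Tef as for Nr1d2, array 1 was above array 2 with microsphere keratin and below it in every other group.

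Dbp (1438211_PM_s_at), a PAR bZIP factor directly under CLOCK and BMAL1, read 26.9 and 167 with minoxidil, 125 and 115 with keratin, 129 and 104 with microsphere keratin, and 80.3 and 181 in untreated skin. Here untreated array 2 was the highest of the 8 arrays, unlike for Nr1d2 and Tef. Both keratin and both microsphere keratin arrays lay between the untreated arrays.

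A dimmer Dbp probeset (1418174_PM_at) gave another order. It read 30.9 and 68.4 with minoxidil, 52.0 and 56.9 with keratin, 63.2 and 46.0 with microsphere keratin, and 32.2 and 57.1 in untreated skin, so minoxidil array 2 was highest. In the number 2 arrays the brighter Dbp probeset was 0.634 times as high with keratin as in untreated skin, and the dimmer one 0.997 times. With microsphere keratin array 2 these ratios were 0.572 and 0.806, so both Dbp probesets were lower there. A lower Dbp in keratin array 2 thus stood on 1 of its 2 probesets. The other probesets of Nr1d2 and Tef read 30.1 to 35.9 and 36.2 to 43.2 over the 8 arrays and spread much less than the brighter ones. With microsphere keratin the dim Nr1d2 probeset was 1.19 times as high as in untreated skin in the number 1 arrays and 0.926 times in the number 2 arrays. For the dim Tef probeset these ratios were 1.03 and 0.882.

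Over the 7 arrays other than minoxidil array 1, the highest intensity was 2.30 times the lowest for Nr1d2, 2.26 times for Dbp, 1.82 times for Tef, 1.49 times for Per3 and 1.43 times for Per1. Without untreated array 1 as well, the ratios were 1.60, 1.75, 1.42, 1.17 and 1.39 in the same order. Arntl and Clock had ratios of 1.22 and 1.12 over either set of arrays. Among the 6 arrays, microsphere keratin array 2 was lowest for Nr1d2, Dbp, Per2, Clock and Nr1d1.

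With all arrays, 0 of the 9 tested clock genes passed the test in any of the 6 pairwise comparisons, nor did any other gene: limma called 0% of 11235 genes at a Benjamini-Hochberg adjusted p under 0.05. Among the clock genes the lowest unadjusted p was 0.216 (Arntl, minoxidil against keratin), and the adjusted p in limma ran from 0.926 to 1.00. The moderated F test over all groups called 0% of genes as well, and each tested clock gene had an adjusted p of 1.00 there.

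Of all genes, 0.409% had an unadjusted p under 0.05 between minoxidil and untreated skin. That share was 0.383% when keratin and 0.089% when microsphere keratin was compared with untreated skin. It was 0.125% for microsphere keratin against keratin, 1.11% for minoxidil against keratin, 0.249% for minoxidil against microsphere keratin and 0.125% in the F test. In these 6 comparisons 0 clock genes were among them. The estimate of spread is shared by all groups, minoxidil array 1 included.

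Minoxidil against untreated skin gave opposite pictures in the number 1 and number 2 arrays. In the number 2 arrays 7 of 9 clock genes were higher with minoxidil, against 60.4% of all genes tested. In the number 1 arrays 6 of 9 were lower, against 58.7%. Per2 was the 1 of 9 whose minoxidil arrays both lay above both untreated arrays, against 7.48%. These shares are near the background. On the other Per2 probeset the arrays overlapped, at 37.6 and 52.1 with minoxidil and 35.5 and 42.5 in untreated skin. Nr1d2 was 0.496 times as high with minoxidil in the number 1 arrays and 1.26 times in the number 2 arrays, Tef 0.457 and 1.15 times, and Dbp 0.335 and 0.922 times.

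The fitted minoxidil differences were correspondingly wide. Dbp differed by -0.85 ± 0.82 (SE, n = 2 each) on the log2 scale, with a 95% interval of -2.73 to 1.03. Nr1d2 differed by -0.34 ± 0.77 (SE), Tef by -0.47 ± 0.69, Per1 by -0.17 ± 0.37 and Per3 by 0.12 ± 0.24. Without minoxidil array 1 these differences were 0.47, 0.77, 0.53, 0.29 and 0.36 in the order Dbp, Nr1d2, Tef, Per1 and Per3, and without untreated array 1 as well they were -0.12, 0.33, 0.20, 0.20 and 0.15. In those fits minoxidil array 2 stands alone for its group and is assumed to vary as the other groups do. The median over the 9 clock genes was -0.13 with all arrays, beside -0.021 over all genes tested, and 0.29 without minoxidil array 1, beside 0.16 over all genes. With all arrays it was 0.089 once an additive background was removed and 0.0074 with the dimmest probeset of each gene.

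The array kept for minoxidil decided the call. Without minoxidil array 2, so that minoxidil array 1 stood alone for its group, limma called 902 genes (8.03%) for minoxidil against untreated skin, 1708 (15.2%) against keratin and 1508 (13.4%) against microsphere keratin. Of the 9 clock genes 1, 3 and 1 were called in the same order, and the counts of 1 are near the background. Dbp was called in all 3 comparisons, with a log2 difference of -2.17 and an adjusted p of 0.046 against untreated skin in limma, and Tef and Nr1d2 were called against keratin. Without minoxidil array 1, 0 genes were called in each of these comparisons. In minoxidil array 1, the array that stood apart, Dbp read 26.9, under that array's median of 37.2.

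Most clock genes read slightly higher in keratin-treated than in untreated skin, as most genes did. Of 9 tested clock genes 8 were higher, against 75.7% of all genes tested, which is near the background. Their median log2 difference was 0.18, beside 0.10 over all genes. Without untreated array 1 it was 0.013, beside -0.018 over all genes, and without keratin array 2 it was 0.046, beside 0.053. After quantile normalization 6 of 9 were higher, against 54.8%, with a median of 0.017, beside 0.020 over all genes. In both same-numbered pairs 6 of 9 were higher, against 44.2% of all genes, and Per3 and Arntl were the 2 of 9 whose keratin arrays both lay above both untreated arrays, against 20% of all genes. That last share is near the background. On its probeset 1421087_PM_at the Per3 arrays overlapped.

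Nr1d2 was 1.70 times as high with keratin in the number 1 arrays and 1.07 times in the number 2 arrays, which gave a difference of 0.43 ± 0.77 (SE, n = 2 each) and a 95% interval of -1.33 to 2.19. Without untreated array 1 it was -0.0035. Tef differed by 0.24 ± 0.69 (SE), and by -0.094 without untreated array 1. Per3 differed by 0.24 ± 0.24 and Per1 by 0.18 ± 0.37. Dbp differed by -0.01 ± 0.82 as the average of a number 1 pair that was 1.55 times and a number 2 pair that was 0.634 times as high, and by -0.60 without untreated array 1. With the minoxidil arrays left out of the fit the SE of Nr1d2 was 0.42 and that of Dbp 0.43, and 0 genes were called, with 142 at an unadjusted p below 0.05.

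With microsphere keratin most clock genes were above untreated skin in the number 1 arrays and below it in the number 2 arrays. In the number 1 arrays 8 of 9 clock genes were higher than in untreated skin, against 73.7% of all genes tested. In the number 2 arrays 7 of 9 were lower, against 44.8%. Both held together, higher among the number 1 and lower among the number 2 arrays, for 7 of 9 clock genes, beside 34% of all genes. They were Per1, Per2, Per3, Dbp, Tef, Nr1d2 and Clock, and for Per1 and Per3 each difference in the number 2 pair was only -0.0036. On the brightest probesets, no clock gene had both microsphere keratin arrays above both untreated arrays, against 14.6% of all genes, or below them, against 5.22%. The number 1 pair has untreated array 1 as its control.

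Nr1d2 was 2.05 times as high with microsphere keratin in the number 1 arrays and 0.785 times in the number 2 arrays. Dbp was 1.61 and 0.572 times as high, and Tef 1.56 and 0.811 times. The fitted differences were 0.34 ± 0.77 (SE, n = 2 each) for Nr1d2, -0.06 ± 0.82 for Dbp, 0.17 ± 0.69 for Tef, 0.18 ± 0.24 for Per3 and 0.02 ± 0.37 for Per1. Their 95% intervals reached from -1.42 to 2.10 for Nr1d2 and from -1.94 to 1.82 for Dbp, so a 2-fold difference either way lay inside them. Without untreated array 1 the differences were -0.091 for Nr1d2, -0.65 for Dbp and -0.16 for Tef. The median over the clock genes was 0.063, beside 0.10 over all genes tested, with 6 of 9 higher, against 75.9%. That median was -0.074 without untreated array 1, beside -0.027 over all genes, and -0.056 after quantile normalization, beside 0.0215 over all genes. The sign of the clock gene median thus depends on both.

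**Figure D2:**
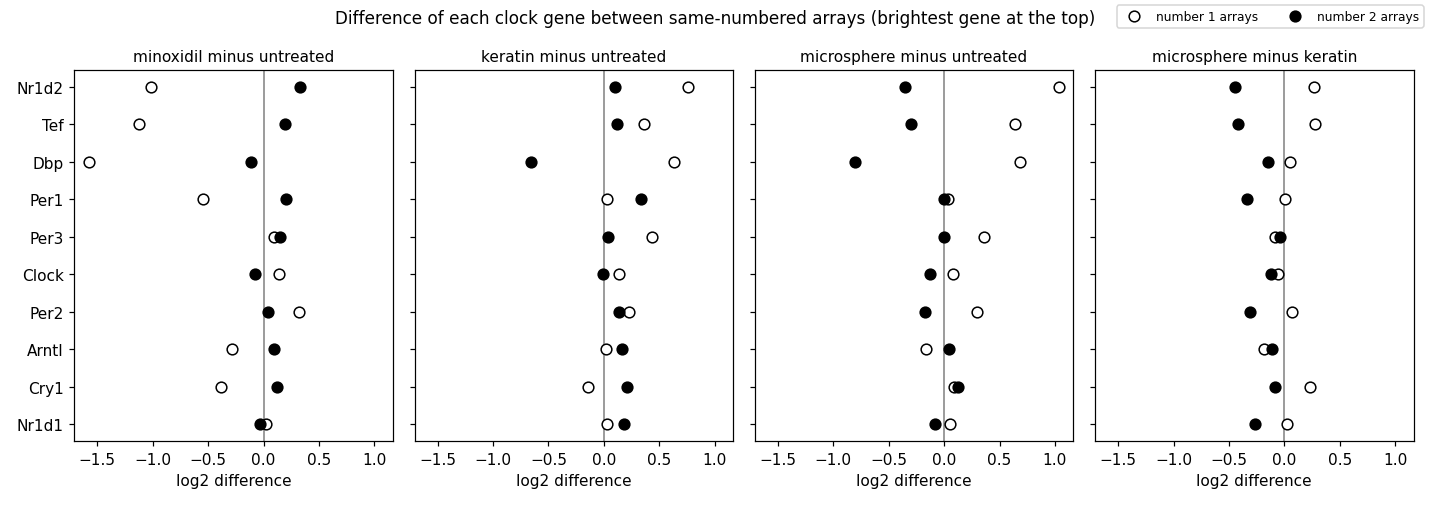
Log2 difference of each clock gene between same-numbered arrays for 4 comparisons, with the number 1 pair as open and the number 2 pair as filled points. Against keratin, microsphere keratin is lower for all 10 genes in the number 2 arrays, while Nr1d2 and Tef are higher in the number 1 arrays.

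Microsphere keratin and keratin, both applied at 1%, were also compared directly, which leaves both arrays that stood apart out of the means. In the number 2 arrays all 9 tested clock genes were lower with microsphere keratin, against 49% of all genes tested, and so was the untested Nr1d1. The log2 differences ran from -0.041 for Per3 to -0.45 for Nr1d2, with Tef at -0.42, Per1 at -0.34, Per2 at -0.31 and Dbp at -0.15. In the number 1 arrays 6 of 9 were higher, against 42.7%, with Tef at 0.28, Nr1d2 at 0.27 and Cry1 at 0.23. Each pair is a single array against a single array, so neither has a replicate check.

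Over both pairs the clock genes differed little between these treatments. On average 8 of 9 were lower with microsphere keratin, against 54.3% of all genes. The median log2 difference was -0.088, beside -0.011 over all genes tested, and single genes ran from -0.17 (Per1) to 0.07 (Cry1). Per3, Arntl and Clock were the 3 of 9 whose microsphere keratin arrays both lay below both keratin arrays, against 10.4% of all genes, and their differences were -0.06 ± 0.24, -0.15 ± 0.14 and -0.09 ± 0.14 (SE, n = 2 each). Arntl and Clock are dim, and these are differences of a few intensity units. On the Per3 probeset 1421087_PM_at the arrays of these treatments overlapped. On the dimmest Per3 probeset microsphere keratin was lower, only just so in array 1, at 45.7 and 45.3 against 45.9 and 50.2 with keratin. The second Clock probeset also read lower, at 41.6 and 37.8 against 47.0 and 43.5.

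Minoxidil against keratin gave 9 of 9 clock genes lower on average, against 70.2% of all genes, with a median of -0.18 beside -0.12 over all genes, and 3 of 9 lower in both pairs, against 32.2%. In the number 2 arrays 5 of 9 were lower, against 48.7%. Minoxidil against microsphere keratin gave a median of -0.19, beside -0.11 over all genes, while in the number 2 arrays 8 of 9 clock genes were higher with minoxidil, against 47.8%. Per2 was the 1 of 9 whose minoxidil arrays both lay above both microsphere keratin arrays, against 5.33%. On its other probeset these arrays overlapped, at 37.6 and 52.1 with minoxidil and 35.9 and 42.0 with microsphere keratin. In the number 2 arrays Nr1d2 read 193 with minoxidil and 120 with microsphere keratin. Without minoxidil array 1 the medians of these comparisons were 0.13 and 0.19, beside 0.039 and 0.052 over all genes.

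Other clock genes were counted from a further list of 14, of which 13 were found and 12 tested. It includes Cry2, Npas2, the D-box repressor Nfil3, the E-box repressors Bhlhe40, Bhlhe41 and Ciart, and Timeless. In limma 0 of the 12 had an unadjusted p under 0.05 in any comparison. With keratin 11 of 12 were higher than untreated, against 75.7% of all genes, with a median of 0.17 beside 0.10 over all genes. With microsphere keratin 11 of 12 were higher, against 75.9%, with a median of 0.10, the same as over all genes. For microsphere keratin against keratin in the number 2 arrays 10 of 12 were lower, against 49% of all genes, and 2 of 12 higher.

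Among this list Timeless, a replication fork protein with a proposed clock role, had the widest range. It read 53.7 and 67.3 with minoxidil, 53.8 and 54.3 with keratin, 51.1 and 92.1 with microsphere keratin, and 40.7 and 61.9 in untreated skin. Microsphere keratin array 2 was highest for Timeless, as it was for the summed cell division genes, at 709 against 540 in untreated array 2. Bhlhe40 read 41.0 and 86.8 with minoxidil, 67.1 and 104 with keratin, 74.3 and 74.8 with microsphere keratin, and 52.0 and 80.8 in untreated skin. Bhlhe40, an E-box repressor, was highest in keratin array 2.

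Genes that clocks or glucocorticoids drive in other tissues had mostly lower values in microsphere keratin array 2 than in keratin array 2. Of 7 clock-controlled genes 5 were lower, against 49% of all genes. Usp2, a rhythmic ubiquitin protease, read 103 in microsphere keratin array 2 and 184 in keratin array 2. The other 2 went the other way, Noct at 245 and 156 and Por at 51.4 and 49.4 in the same order. Of 8 glucocorticoid targets 7 were lower with microsphere keratin than with keratin in the number 2 arrays, against 49% of all genes, and 8 of 8 were higher in the number 1 arrays, against 42.7%. Klf9, a transcription factor induced by glucocorticoids, read 468 and 310 with microsphere keratin and 424 and 584 with keratin. Dusp1, a phosphatase of MAP kinases, read 161 and 92.5 with microsphere keratin and 137 and 158 with keratin. With all arrays 0 glucocorticoid targets passed the test in limma in any comparison. Errfi1, an inhibitor of EGF receptor signalling, had an unadjusted p of 0.0436 in limma for minoxidil against microsphere keratin. It was the 1 of 8 targets under 0.05 there, against 0.249% of all genes, and in each other comparison 0 of 8 were. Errfi1 read 35.95 and 78.4 with minoxidil and 161 and 92.6 with microsphere keratin. The lowest of these values is from minoxidil array 1, the array that stood apart.

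The level of skeletal muscle genes varied in part together with the summed clock genes across the arrays. Such a sum is weighted to its brightest genes, here Nr1d2, Tef and Dbp. The muscle layer under the skin, the panniculus carnosus, can be part of such samples and has its own clock. The 6 muscle markers summed to 182 and 13905 in minoxidil arrays 1 and 2, 3464 and 11837 in keratin arrays, 8350 and 7072 in microsphere keratin arrays, and 1653 and 11960 in untreated arrays. The 10 clock genes summed to 381 and 870 with minoxidil, 696 and 800 with keratin, 753 and 660 with microsphere keratin, and 544 and 804 in untreated skin. Both sums were lowest in minoxidil array 1 and next lowest in untreated array 1, both were highest in minoxidil array 2, and both were lower in microsphere keratin array 2 than in its array 1, against the order of the other groups. The orders also differed in part. Keratin array 1 had a lower muscle sum than microsphere keratin array 2 (3464 against 7072) but a higher clock sum (696 against 660).

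The 3′ Gapdh probeset followed the same order of arrays within each group, at 196 and 1605 with minoxidil, 630 and 1465 with keratin, 1273 and 1006 with microsphere keratin, and 298 and 1362 in untreated skin. The 5′ Gapdh probeset had that order too. The actin control probesets did not: the 3′ one read 1449 and 1679 with microsphere keratin, and the 5′ one 554 and 419 with keratin. For microsphere keratin against keratin 6 of 6 muscle markers were lower in the number 2 arrays and 6 of 6 higher in the number 1 arrays. The part of muscle content, of RNA amount or of array quality in the clock gene values was not tested. In whole skin, fewer cells of a type and less RNA per cell cannot be told apart. In minoxidil array 1 all 6 muscle markers read 25.1 to 34.7, under that array's median of 37.2.

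**Figure D3:**
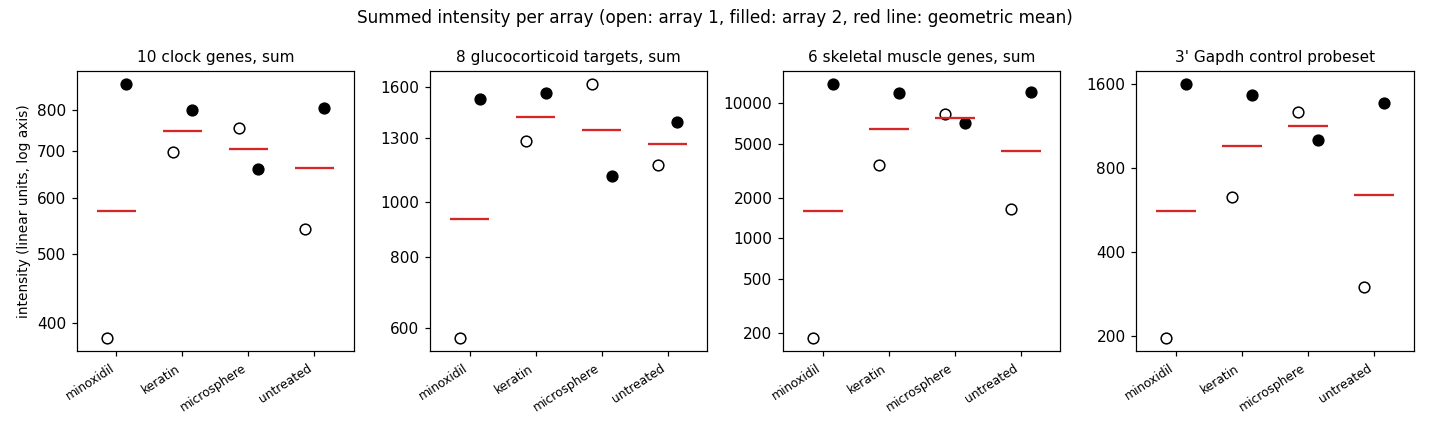
Summed intensity of the 10 clock genes, 8 glucocorticoid targets and 6 skeletal muscle genes, and the 3′ Gapdh probeset, per array on log axes of different range. In all 4 panels array 2 lies above array 1 with minoxidil, with keratin and in untreated skin, and below it with microsphere keratin.

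Markers of other cell types had orders that differed in part. The hair matrix and shaft markers had array 2 above array 1 in all 4 groups, at 395 and 1011 with microsphere keratin. The fibroblast markers had array 1 above array 2 with keratin, at 2522 and 1250, and in untreated skin, at 1383 and 899. With microsphere keratin they had array 1 above array 2 as well, at 2846 and 1320, the order of the clock sum there. So had the epidermis markers, at 1038 and 864. Epidermis markers summed to 675 to 1199 in the 7 arrays other than minoxidil array 1, where they summed to 359.

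The array numbers themselves were compared across the 4 groups with treatment as a term. Number 2 minus number 1 was 0.35 ± 0.10 (SE, log2) for Cry1, with an unadjusted p of 0.00668 and an adjusted p of 0.0857 in limma. Per1, Per3 and Cry1 were higher in the number 2 array of all 4 groups, which is 3 of 9 clock genes, against 34.2% of all genes tested. Of all genes 28.6% had an unadjusted p under 0.05, and 0% were called after adjustment in limma. Without minoxidil array 1 the number called was 381 (3.39% of all genes), and without minoxidil array 2 it was 218 (1.94%). In both cases 0 of 9 clock genes were among them, which is near these shares. Leaving out any of the other 6 arrays, 0 genes were called. What the numbers stand for is not given in the sources used here.

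The authors' deposited tables compare single arrays and list only probesets past a fold of 1.30 (number 2 arrays) or 2.00 (number 1 arrays), on another scale than the value table. As gene names come from these tables, counts of clock probesets in them are a description. Each clock probeset had to be among the 28918 probesets listed in at least 1 of them. The shares given below are over all 45141 probesets and are lower than those over the listed probesets, so they are no fair background. In the authors' deposited table for microsphere keratin array 2 against untreated array 2, 9 of 17 clock probesets were listed as lower, against 7.71% of all probesets, and 1 as higher, against 9.21%. Dbp was listed there as 2.18-fold and 1.80-fold lower on its probesets, Per3 as 1.54-fold, Nr1d2 as 1.45-fold and 1.40-fold, Tef as 1.39-fold and 1.58-fold, and Clock as 1.30-fold lower. The Per3 and Clock entries are on dimmer probesets than those that stand for these genes here. Per2 was listed as lower too. Cry1 was the clock gene listed as higher, by 1.49-fold.

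In the authors' deposited table for keratin array 2, 6 clock probesets were listed as higher than in untreated array 2, against 9.46% of all probesets, and 2 as lower, against 8.42%. Dbp was listed as 1.84-fold lower and Tef as 1.70-fold lower, on a dim Tef probeset. Per3 was listed as 1.60-fold higher, on its dimmest probeset. Cry1 was listed as 1.59-fold, Nr1d1 as 1.52-fold, Per1 as 1.38-fold, Arntl as 1.32-fold and Per2 as 1.31-fold higher. In the authors' deposited table for minoxidil array 2, 5 clock probesets were listed as higher, against 7.92%, and 0 as lower, against 4.59%. Cry1 was listed at 1.43-fold and Nr1d2 at 1.34-fold, on the probesets that stand for them here. Per3 (1.70-fold), Per2 (1.61-fold) and Dbp (1.36-fold) were listed on dimmer probesets. The brighter Dbp probeset is not among those listed, and in the value table it was 0.922 times as high. The 3 comparisons share untreated array 2.

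For the number 1 arrays the authors' deposited tables list 5 clock probesets as higher with microsphere keratin, against 18.6% of all probesets, and 5 with keratin, against 18.9%. The authors' deposited tables give Nr1d2 as 18.6-fold higher with microsphere keratin and 16.0-fold higher with keratin, where the value table gives 2.05 and 1.70 times. In the authors' deposited tables the untreated log2 value of Nr1d2 is 1.09 for array 1 and 7.22 for array 2. In the value table untreated arrays 1 and 2 read 84.0 and 153. The size of a clock gene difference in the number 1 arrays thus depends on which deposited values are used.

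By the measure of likeness used here, Pearson's r of log2 values with Dbp among genes tested, the closest genes over 8 arrays were Prss23, Ndufc1, Ptp4a2, Cacybp and Pdzrn3, at r = 0.986 to 0.992. Tef ranked 109th at 0.961 and Nr1d2 173rd at 0.955. Over the 7 arrays other than minoxidil array 1 the closest were Vegfa, Crkl, Nudt4, Ndufc1 and Prss23, at 0.957 to 0.988, with Nr1d2 ranked 416th at 0.813 and Tef 578th at 0.791. Per1 ranked 6510th, at 0.329. All genes were read on the same arrays, of which minoxidil array 1 and untreated array 1 stood apart. The part of array quality in these r values was not tested, and they describe these arrays only.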

How the data were processed

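Total RNA (9.4 µg) of skin with follicles was labelled, per the labels' protocols, and measured on 8 HT_MG-430_PM arrays, as the file headers name them. The submitters' processing notes name RMA, Expression Console and Transcriptome Analysis Console. Intensity in the deposited value table is linear, over 45141 probesets, and how it was background-corrected or scaled is not stated there. The authors' deposited comparison tables give log2 values of each condition and a fold change with a sign, used as a score: minus means lower in the treated array. A p-value column that the authors deposited in one of them is 1 throughout. A table named for minoxidil array 1 is headed as microsphere and served for symbols only.

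Symbols came from these tables (23804 probesets with 1 symbol, 844 with several, 4270 without). After log2 transformation the probeset of highest mean stood for its gene, and a filter at the 25th percentile of gene means left 11235 genes to test. limma 3.58.1 in R 4.3.3 fitted 4 group means (residual degrees of freedom 4, prior variance trended on intensity), with Benjamini-Hochberg adjustment over all genes at 0.05. An exact permutation test of 2 arrays against 2 cannot go below p = 0.333. The fit was tested on simulated data. Alternatives covered normalization, filters, probeset choice, the variance model, array weights, background, a block for array number and leaving out single arrays. No 2 arrays held identical values. Clock genes and further lists were chosen with earlier results of these data known. The split at a mean of 50 was made after the values were seen. From the further clock list, the 4 genes with the widest range over 7 arrays were named, and any with an unadjusted p below 0.05, as were the 5 genes most like Dbp. Some of these genes are not reported here. Usp2, Noct, Por, Klf9, Dusp1 and Errfi1 were chosen after their values were seen. Figures used matplotlib 3.10.9 in Python 3.11.15. Promoter, protein and genome sequences were not used here.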

Additional observations from a re-analysis of the deposited data

How the results depend on the processing

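Every fit with all arrays called 0 genes: quantile normalization, no filter, a filter at the median, every probeset, the dimmest probeset or the mean of probesets per gene, no intensity trend, array weights, an additive background removed (0.9 times the lowest value of each array) and the replicate block. The array numbers share only a number: deviations of same-numbered arrays correlated at r = 0.112 to 0.597, and with 2 numbers a pairing is not established. The replicate block left each difference as it was, such as 0.43 for Nr1d2 with keratin, and changed no call. Leaving the minoxidil group out of the fit also called 0 genes. With 2 arrays a group and probesets near background for 5 of the 10 genes, small clock gene changes could not be detected.

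All values below are log2 differences from untreated skin unless named otherwise, and the cause of each change of sign was not tested. With quantile normalization Per1 was -0.018 with keratin and -0.16 with microsphere keratin, and Tef -0.056 with microsphere keratin. With the dimmest probeset Dbp was 0.10, Tef 0.084 and Nr1d2 0.0074 with minoxidil, Dbp 0.34 and Tef -0.078 with keratin, and Dbp 0.33 and Tef -0.071 with microsphere keratin. With the mean of probesets Dbp was 0.17 with keratin and 0.14 with microsphere keratin. With the additive background removed Dbp was 0.026 with keratin. The median of the clock genes for microsphere keratin minus keratin was -0.014 with the dimmest probeset and -0.049 with the mean of probesets.

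Leaving out each array in turn, minoxidil against untreated skin called 0 to 902 genes, minoxidil against keratin 0 to 1708 and minoxidil against microsphere keratin 0 to 1508, each highest without minoxidil array 2. The array number called 0 to 381 genes, highest without minoxidil array 1. The median of the clock genes ran from 0.013 to 0.31 for keratin minus untreated, from -0.074 to 0.19 for microsphere keratin minus untreated, -0.45 to 0.29 for minoxidil minus untreated, -0.48 to 0.13 for minoxidil minus keratin, -0.55 to 0.19 for minoxidil minus microsphere keratin and -0.19 to -0.013 for microsphere keratin minus keratin. With minoxidil Per1 ran from -0.64 to 0.29, Per3 from -0.12 to 0.36, Dbp from -2.17 to 0.47, Tef from -1.46 to 0.53 and Nr1d2 from -1.45 to 0.77. With keratin Per1 ran from -0.058 to 0.42, Dbp from -0.60 to 0.58, Tef from -0.094 to 0.57 and Nr1d2 from -0.0035 to 0.86. With microsphere keratin Per1 ran from -0.074 to 0.10, Per3 from -0.038 to 0.39, Dbp from -0.65 to 0.53, Tef from -0.16 to 0.50 and Nr1d2 from -0.091 to 0.78.

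Leaving out minoxidil array 1 and untreated array 1 together was chosen after seeing the data. With minoxidil Per1 was then 0.20, Tef 0.20 and Nr1d2 0.33, with keratin Tef -0.094 and Nr1d2 -0.0035, and with microsphere keratin Per1 -0.074, Per3 -0.038, Tef -0.16 and Nr1d2 -0.091. The medians were 0.13 for minoxidil minus keratin and 0.19 for minoxidil minus microsphere keratin.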
